A study of Homo sapiens with 36 samples.

Results

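The 45 genes described here encode lysosomal enzymes, their cofactors, lysosomal membrane proteins and 2 transcription factors of lysosomal genes. They were chosen as a list of symbols, by the function of their products and with no threshold on their values. Earlier results of these data were known when the list was chosen. The genes were looked up in 3 tables, the largest of which holds 60642 genes. The list holds 12 proteases, 11 glycosidases, 5 sulfatases, 8 lipid-handling enzymes and cofactors, 7 membrane proteins and the transcription factors TFEB and TFE3. All 45 were listed among the K562 degron libraries and the HEL libraries, and 42 among the K562 LDB1 libraries, where ARSB, LIPA and CLN3 were missing.

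K562, a human chronic myeloid leukemia line with erythroid features, and HEL, a human erythroleukemia line, were sequenced as polyadenylated RNA. In K562, LMO2 degron cells, labelled rep 1 and rep 2 and treated here as degron line 1 and degron line 2, were set beside an LMO2 control line and parental cells. A degron is a protein tag through which the small molecule dTAGv1 brings the tagged protein to an E3 ubiquitin ligase for breakdown. All 4 lines gave 2 libraries before dTAGv1 (day 0), 2 after 1 day in it and 2 after 4 days, 24 libraries in all. The labels give 750 uM dTAGv1 for all lines, the control lines included. That unit is printed as labelled and may be a slip for nM, which the files cannot settle. The labels do not say what the LMO2 control line carries or whether a degron line is 1 clone. In HEL, TAL1 siPool 1, TAL1 siPool 2 and a non-targeting siRNA pool were compared in 3 libraries each. In K562, LDB1 shRNA 1, LDB1 shRNA 2 and a control shRNA had 1 library each. LMO2, LDB1 and TAL1 are members of a transcription factor complex of blood cells, and the study asked what depends on them in leukemia cells. The labels do not say whether libraries of a group came from separate cultures, so p-values measure the spread between these libraries, which may be technical.

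Lysosomal enzymes are made in the endoplasmic reticulum, most of them are tagged with mannose 6-phosphate in the Golgi, and receptors carry them to the lysosome, where acid pH set by the V-ATPase lets them work. Lysosomes are abundant in macrophages and granulocytes, while red cell precursors remove theirs along with other organelles as they mature. TFEB and TFE3 move to the nucleus when nutrient signalling at the lysosome falls and bind a palindromic element, called CLEAR, in promoters of many lysosomal genes.

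The element was looked for in RefSeq promoter windows (GRCh38.p14), from 250 bases before to 50 bases after each gene's start, on both strands. Windows were found for 34 of the 45 genes, and not for ARSA, ASAH1, CTSB, CTSS, HEXA, LAMP2, LGMN, MANBA, NAGLU, PSAP and SGSH. The core CACGTG stood in the windows of 11 of the 34 genes (32.4%), against 8.775% of 27305 genes with such a window. The longer TCACGTGA, which contains that core, stood in CLN3, CTSA, GALNS, LAMP1, MCOLN1 and SCPEP1, 6 of 34 (17.6%) against 1.176% of all genes. AGATAA, a motif that GATA factors bind, stood in 2 of the 34 windows (5.88%, against 12.4% of all genes), and CAGATG, an E-box, in 5 of them (14.7%, against 17.5%). The 250 bases before the start are printed for 4 genes that were higher in degron lines on day 4. CTSA, SCPEP1 and GALNS hold the core, and CTSC, which had the largest day 4 change, does not. CACGTG is in capitals.
CTSA, chr20:45891085-45891334, plus strand: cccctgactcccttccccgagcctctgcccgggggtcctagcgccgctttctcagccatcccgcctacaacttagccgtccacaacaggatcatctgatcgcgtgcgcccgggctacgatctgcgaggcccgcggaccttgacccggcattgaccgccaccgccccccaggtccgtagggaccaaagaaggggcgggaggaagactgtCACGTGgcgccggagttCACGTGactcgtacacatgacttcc
SCPEP1, chr17:56977881-56978130, plus strand: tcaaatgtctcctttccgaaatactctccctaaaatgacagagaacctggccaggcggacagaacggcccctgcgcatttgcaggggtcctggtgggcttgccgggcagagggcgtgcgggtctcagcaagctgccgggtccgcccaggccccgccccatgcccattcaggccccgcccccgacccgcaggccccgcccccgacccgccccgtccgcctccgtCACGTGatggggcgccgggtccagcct
GALNS, chr16:88856948-88857197, minus strand: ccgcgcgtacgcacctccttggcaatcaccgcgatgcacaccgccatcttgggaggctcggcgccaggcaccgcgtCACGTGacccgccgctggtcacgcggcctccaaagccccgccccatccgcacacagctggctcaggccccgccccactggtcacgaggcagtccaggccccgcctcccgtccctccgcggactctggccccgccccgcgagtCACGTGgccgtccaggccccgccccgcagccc
CTSC, chr11:88337737-88337986, minus strand: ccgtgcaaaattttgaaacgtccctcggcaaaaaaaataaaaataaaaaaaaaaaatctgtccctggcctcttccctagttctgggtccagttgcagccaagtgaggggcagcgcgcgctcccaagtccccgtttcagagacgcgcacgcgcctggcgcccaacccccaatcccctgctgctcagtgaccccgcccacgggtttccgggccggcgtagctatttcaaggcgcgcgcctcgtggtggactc
Counting the base before the start as -1, the first base of CACGTG lay at -42 and -25 in CTSA, at -27 in SCPEP1 and at -174 and -32 in GALNS. These are matches of letters, and binding was not measured. Of the 20 genes with a window that were called higher on day 4, 7 held CACGTG. CTSF, LAMP1 and MCOLN1, which were tested and not called, and CLN3, which was not tested, held it too. TCACGTGA stood in 3 of the 20 called genes, and in CLN3, LAMP1 and MCOLN1. The full CLEAR element stood in 2 of the 34 windows, those of GALNS and MCOLN1 (5.88%, against 0.421% of all genes). Of these, GALNS alone was called. A link between these motifs and the rise was not tested.

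Depth was 17196715 to 26321576 reads in the K562 degron libraries, as recovered from their FPKM, and 15869619 to 27029836 counts in HEL, and it is unknown in the LDB1 libraries. The lowest of the genes in K562 were CLN3 and LIPA, each with a median of 40 reads per library, and ARSB, with a median of 118. LMO2 RNA averaged 231 ± 53.5 FPKM in degron lines on day 4 (SD, n = 4), against 365 ± 111 FPKM in the LMO2 control line and 41.0 ± 4.5 FPKM in parental cells (SD, n = 2 each). On day 0 it averaged 139 ± 10.1 and 146 ± 15.9 FPKM in degron lines 1 and 2, against 249.9 ± 2.74 FPKM in the LMO2 control line and 34.7 ± 3.50 FPKM in parental cells (SD, n = 2 each). The degron lines thus stood between the unlike control lines on both days, and a degron acts on protein, which was not measured. TAL1 RNA in HEL stood at 165 to 191 CPM with siPool 1 and at 180 to 195 CPM with siPool 2, against 439 to 491 CPM with the non-targeting pool. LDB1 RNA stood at 62.4 and 69.6 TPM with the LDB1 shRNAs, against 468 TPM with the control shRNA.

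After 4 days of dTAGv1, RNA of most lysosomal genes was higher in both degron lines, relative to their own day 0 and to the control lines. The value compared is the mean change from day 0 of log2(FPKM + 1) in the degron lines minus that in the parental and LMO2 control lines, where FPKM is the fragment count scaled to gene length and library depth. Of the 44 genes that passed the filter of 1 FPKM in 2 libraries (CLN3 did not), 29 rose and 1 fell at an adjusted p under 0.05 (limma), where 11.6% of all 15348 genes rose and 8.18% fell. The median change was 0.83, against 0.063 over all genes, and 41 of 44 changes were above 0. With the replicate number as a block, 34 rose and 3 fell, where 20.1% and 15.6% of all genes did. On day 4 all 4 degron libraries lay above all 4 control-line libraries for 38 of the 44 genes, and below them for GLA alone. Over all genes, 28.2% lay above and 20.2% below. This count compares levels, not changes from day 0. On day 0, before dTAGv1, 27 of the 44 already lay above, where 11.4% of all genes did. In bulk RNA, a shift in the share of cells that make a transcript and a shift in its level per cell cannot be told apart.

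Among the proteases, 7 of 12 rose and none fell (median 1.00), although with the block CTSH and CTSZ fell. CTSC, the cathepsin that activates serine proteases of granules, had 13.6, 17.5, 20.5 and 21.6 FPKM in degron libraries on day 0, 15.6 to 41.5 on day 1 and 44.3, 63.2, 90.2 and 125 on day 4. The 12 control-line libraries lay between 7.15 and 16.1 FPKM, with a median of 10.9. Both libraries of degron line 2 were above both of line 1 on day 4, and all 4 were above every control library. The change was 1.93 ± 0.36 (SE; adjusted p = 0.00192). SCPEP1, a serine carboxypeptidase, had 7.88, 9.41, 9.46 and 10.8 FPKM in degron libraries on day 0 and 38, 38.5, 54.9 and 57.7 on day 4, against 3.29 to 9.06 FPKM (median 6.82) in control lines. It rose by 1.90 ± 0.21 (adjusted p = 3.91e-05), and already stood at 16.2 to 25.0 FPKM in all degron libraries on day 1. CTSS, a cysteine protease that cuts the invariant chain of MHC class II in antigen-presenting cells, had 8.63, 8.67, 9.01 and 10.1 FPKM in degron libraries on day 0 and 31.5, 32.8, 47.3 and 59.5 on day 4, against 2.48 to 7 FPKM (median 4.73) in control lines. Its change was 1.78 ± 0.20 (adjusted p = 3.93e-05), and its levels on day 1, at 9.5 to 13 FPKM, were still close to those of day 0.

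TPP1, a tripeptidyl peptidase, had 12.4, 15.7, 19.7 and 22.7 FPKM in degron libraries on day 0 and 31.2, 34.8, 50.9 and 67.8 on day 4, against 7.55 to 13.0 FPKM (median 10.5) in control lines, and rose by 1.31 ± 0.18 (adjusted p = 0.000224). CTSA, the carboxypeptidase that also protects neuraminidase and beta-galactosidase, had 14.7, 16.9, 17.0 and 18.5 FPKM in degron libraries on day 0 and 33.1, 38.1, 42.4 and 52.7 on day 4, against 6.05 to 9.83 FPKM (median 7.52) in control lines. It rose by 1.19 ± 0.19 (adjusted p = 0.000521). For both genes the day 4 degron libraries shared no value with any control library or with day 0. CTSB, a cysteine protease of broad use, had 57.9, 69.6, 70.0 and 79.5 FPKM in degron libraries on day 0 and 109, 118, 189 and 244 on day 4, against 22.2 to 50.9 FPKM (median 30.6) in control lines. Its change of 1.32 ± 0.38 (adjusted p = 0.0234) rested on a wide spread: the call was lost in 6 of 24 fits that left out 1 library (day 0 replicate 1 of the LMO2 control line, day 0 replicate 2 of either degron line, or day 4 replicate 2 of degron line 2, the LMO2 control line or parental cells, adjusted p up to 0.0612), with either control line alone (adjusted p = 0.0805 with parental cells, 0.0851 with the LMO2 control line), with degron line 1 alone (0.216) and with no filter on low values (0.0597). CTSD, the aspartic protease, was the seventh to rise (0.82 ± 0.20, adjusted p = 0.0117), a call lost with degron line 1 alone (adjusted p = 0.0968) and with the LMO2 control line as the only control (0.0739). CTSL, the protease with the highest level, had 154, 158, 169 and 190.4 FPKM in degron libraries on day 0 and 182, 195, 298 and 361 on day 4, against 47.7 to 83.9 FPKM (median 55.0) in control lines. Most of that gap was present before dTAGv1, and its day 4 change of 0.44 ± 0.16 passed with the block only (adjusted p = 0.0277, against 0.0624 without). CTSF, LGMN, CTSH and CTSZ were not called, at 0.25, 0.65, -0.64 and -0.32.

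**Figure D1:**
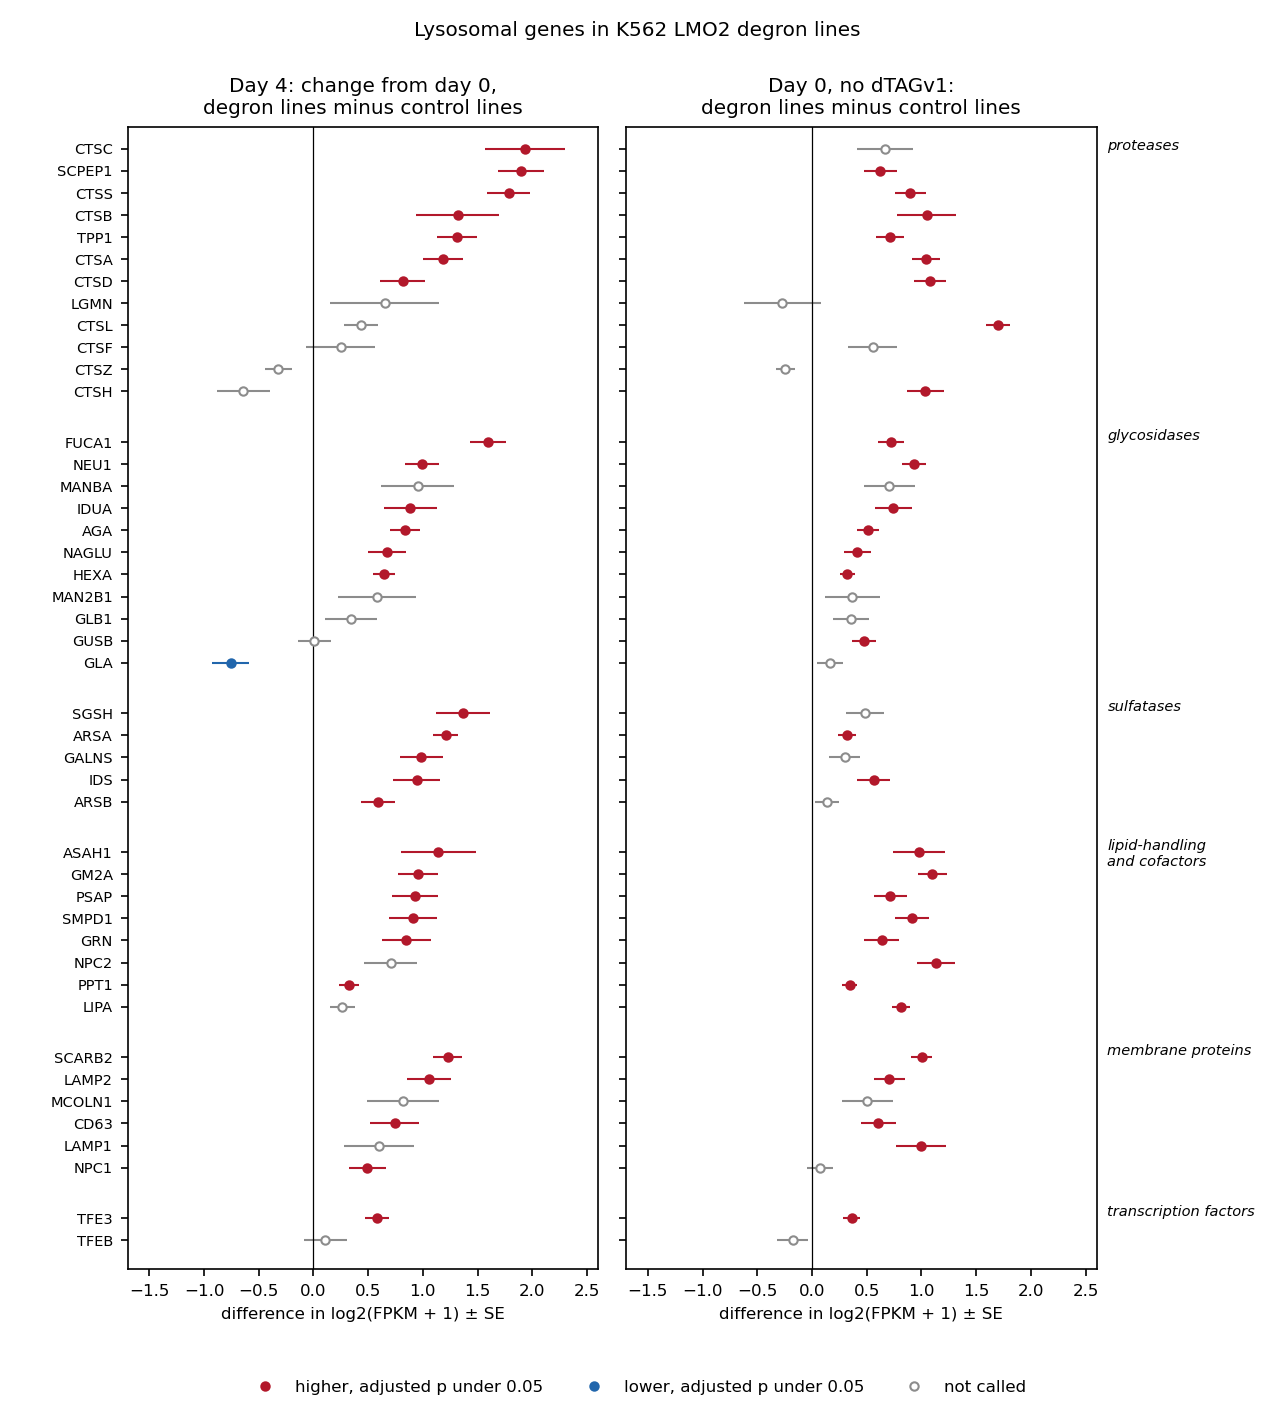
Change of each lysosomal gene in K562 degron lines on day 4 (left; difference in the change of log2(FPKM + 1) from day 0, degron lines minus control lines) and its difference before dTAGv1 on day 0 (right), as estimate ± SE over 24 libraries. Filled points passed an adjusted p under 0.05; 29 genes were higher and GLA lower on day 4, and 30 were higher on day 0.

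Of the glycosidases, which remove sugars from glycoproteins, glycolipids and glycosaminoglycans, 6 of 11 rose and 1 fell (median 0.67). FUCA1, an alpha-L-fucosidase, had 16.4, 16.4, 16.5 and 16.6 FPKM in degron libraries on day 0, 25.6 to 32.6 on day 1 and 43.0, 45.7, 53.7 and 65.8 on day 4, against 7.51 to 11.7 FPKM (median 9.77) in control lines. The 4 degron libraries were nearly equal on day 0 and each day's libraries lay above those of the day before. Its day 4 change was 1.60 ± 0.17 (adjusted p = 2.52e-05). NEU1, a sialidase, rose by 0.99 ± 0.16, AGA, which cuts the bond between sugar and asparagine, by 0.84 ± 0.14, IDUA, an iduronidase, by 0.89 ± 0.24, NAGLU, which acts on heparan sulfate, by 0.67 ± 0.17 and HEXA, the alpha subunit of hexosaminidase A, by 0.64 ± 0.10 (adjusted p between 0.000522 and 0.0176). The call of IDUA was lost with degron line 2 alone (adjusted p = 0.103) and with either control line alone (0.0878 with the LMO2 control line, 0.0522 with parental cells), and that of NAGLU with degron line 1 alone (0.102), with parental cells as the only control (0.093) and with recovered reads (edgeR, 0.054). GLA, alpha-galactosidase A, went the other way. It had 12.7, 13.9, 14.2 and 16.5 FPKM in degron libraries on day 0, 10.9 to 13.4 on day 1 and 7.88, 8.97, 9.07 and 9.76 on day 4, against 10.6 to 16.1 FPKM (median 13.3) in control lines. All 4 day 4 degron libraries were below every control library, and GLA fell by 0.76 ± 0.17 (adjusted p = 0.00532). GUSB, beta-glucuronidase, stood at 0.01 ± 0.15, and GLB1, MAN2B1 and MANBA were not called, the last of them at 0.95 ± 0.33 (adjusted p = 0.0558, and 0.00105 with the block).

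The sulfatases, which free sulfate from glycosaminoglycans and sulfolipids, all rose (5 of 5, median 0.99). SGSH, a sulfamidase of heparan sulfate, had 2.80, 3.95, 4.03 and 5.38 FPKM in degron libraries on day 0 and 10.8, 11.3, 13.0 and 16.4 on day 4, against 2.22 to 3.67 FPKM (median 2.65) in control lines, a change of 1.37 ± 0.25 (adjusted p = 0.00143). ARSA, which desulfates sulfatide, had 2.71, 3.15, 3.31 and 3.80 FPKM in degron libraries on day 0 and 7.07, 7.38, 8.19 and 9.30 on day 4, against 1.58 to 3.20 FPKM (median 2.32) in control lines. It had the smallest p of all 44 genes (1.21 ± 0.12, adjusted p = 1.12e-05). On day 0 both genes overlapped between the groups, and on day 4 neither did. GALNS rose by 0.99 ± 0.20, IDS by 0.94 ± 0.22 and ARSB by 0.59 ± 0.16 (adjusted p = 0.0027, 0.00688 and 0.0165). With degron line 1 alone SGSH, IDS and ARSB lost their calls (adjusted p = 0.0511, 0.0588 and 0.109), and ARSB lost it also with a pseudocount of 0.1 (0.0537), with the LMO2 control line alone (0.115) and with recovered reads (edgeR, 0.0554).

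Of 8 enzymes and cofactors of lipid handling, 6 rose (median 0.88) and none fell. ASAH1, acid ceramidase, had 18.4, 19.8, 24.2 and 24.6 FPKM in degron libraries on day 0 and 36.0, 38.9, 49.0 and 65.0 on day 4, against 5.43 to 14.3 FPKM (median 10.3) in control lines. The groups did not overlap on either day, but the call (1.14 ± 0.34, adjusted p = 0.0282) was lost in 8 of 24 fits without 1 library (adjusted p up to 0.0711), among them those without day 0 replicate 1 of either control line and without day 4 replicate 2 of degron line 2, with degron line 1 alone (0.222), with no filter on low values (0.0703) and with either control line alone (0.0751 with parental cells, 0.117 with the LMO2 control line). PSAP, the precursor of the saposins that help sphingolipid hydrolases, was the most abundant of the 45 genes. It had 306, 319, 338 and 362 FPKM in degron libraries on day 0 and 552, 588, 616 and 802 on day 4, against 160.2 to 266 FPKM (median 206) in control lines, a change of 0.93 ± 0.21 (adjusted p = 0.00656). GM2A, the activator that presents ganglioside GM2 to hexosaminidase, rose by 0.96 ± 0.19, SMPD1, acid sphingomyelinase, by 0.91 ± 0.22, GRN, progranulin, by 0.85 ± 0.22 and PPT1, a thioesterase, by 0.33 ± 0.09 (adjusted p between 0.00246 and 0.0243). With degron line 1 alone PSAP, GM2A and GRN lost their calls (adjusted p = 0.0799, 0.0598 and 0.0939), and with parental cells as the only control GRN and SMPD1 did (0.0792 and 0.0606). The call of PPT1 was lost in 5 of 24 fits without 1 library, up to an adjusted p of 0.0637, with recovered reads (edgeR, 0.215), and with degron line 1 or either control line alone (adjusted p between 0.0655 and 0.348). NPC2, the soluble cholesterol carrier, was not called (0.70 ± 0.25, adjusted p = 0.0564, and 0.0222 with the block).

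LIPA, acid lipase, the enzyme that frees cholesterol and fatty acids from lipoproteins, separated the degron lines from each other. Degron line 2 had 0.0653 and 0.0695 FPKM on day 0, 0.0817 and 0.0826 on day 1 and 0.0857 and 0.16 on day 4. Degron line 1 had 3.85 and 4.26 FPKM on day 0, 3.84 and 4.61 on day 1 and 6.72 and 7.66 on day 4. The 12 control-line libraries lay between those lines, at 0.302 to 0.504 FPKM. On day 0, before dTAGv1, line 2 was lower than line 1 by a difference of -2.24 ± 0.12 (adjusted p = 4.33e-08), a test added after the values were seen. LIPA was the only one of the 44 genes to differ between the lines on day 0 in this test, in which 0.749% of all genes were higher and 1.04% lower in line 2. Its mean over both lines (0.81 ± 0.08 above control lines on day 0, adjusted p = 9.42e-06) therefore describes neither of them: line 2 alone stood at -0.31 (adjusted p = 0.0528) and line 1 alone at 1.94.

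Of the membrane proteins that passed the filter, 4 of 6 rose (median 0.78). SCARB2, a sorting receptor of the lysosomal membrane, had 3.39, 3.83, 4.13 and 4.19 FPKM in degron libraries on day 0 and 9.03, 9.35, 12.8 and 13.2 on day 4, against 0.911 to 2.07 FPKM (median 1.46) in control lines. It rose by 1.23 ± 0.13 (adjusted p = 2.75e-05). LAMP2, a major protein of the lysosomal membrane that also serves autophagy, had 13.0, 15.5, 18.7 and 18.9 FPKM in degron libraries on day 0 and 27.3, 29.8, 45.1 and 50.9 on day 4, against 7.95 to 12.6 FPKM (median 9.20) in control lines, and rose by 1.05 ± 0.20 (adjusted p = 0.00211). For both, degron libraries lay above control libraries on day 0 and further above on day 4. CD63, a tetraspanin of late endosomes, had 114, 119, 124 and 156 FPKM in degron libraries on day 0 and 182, 191, 226 and 265 on day 4, against 68.4 to 105 FPKM (median 83.1) in control lines (0.74 ± 0.22, adjusted p = 0.0288). The groups of CD63 did not overlap, yet its call was lost in 8 of 24 fits without 1 library (adjusted p up to 0.0767), with recovered reads (edgeR, 0.0772), and with degron line 1 or either control line alone (adjusted p between 0.0644 and 0.219). NPC1, the cholesterol exporter, passed narrowly (0.49 ± 0.17, adjusted p = 0.0498) and lost its call in 18 of 24 fits without 1 library (adjusted p up to 0.127) and with degron line 1 or either control line alone (adjusted p between 0.0851 and 0.419). LAMP1 (0.60 ± 0.32, adjusted p = 0.211) and the calcium channel MCOLN1 (0.82 ± 0.33, adjusted p = 0.0934) were not called, though both were with the block (adjusted p = 0.0152 and 0.000262). CLN3 stayed at 0.0898 to 0.361 FPKM in all 24 libraries.

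The transcription factors differed from each other. TFE3 had 14.8, 15.8, 16.4 and 16.5 FPKM in degron libraries on day 0, 20.7 to 21.7 on day 1 and 24.1, 25.1, 25.6 and 27.1 on day 4, against 10.8 to 14.7 FPKM (median 12.7) in control lines. Its degron libraries lay above those of control lines on every day, and it rose by 0.58 ± 0.11 on day 4 (adjusted p = 0.00166). TFEB had 1.18, 1.26, 1.28 and 1.29 FPKM in degron libraries on day 0, 1.16 to 1.72 on day 1 and 1.18, 1.55, 1.57 and 1.60 on day 4, against 0.869 to 2.50 FPKM (median 1.69) in control lines. Its groups overlapped on every day, and its change was 0.11 ± 0.20 (adjusted p = 0.744). RNA says nothing of where either protein sat in the cell.

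**Figure D2:**
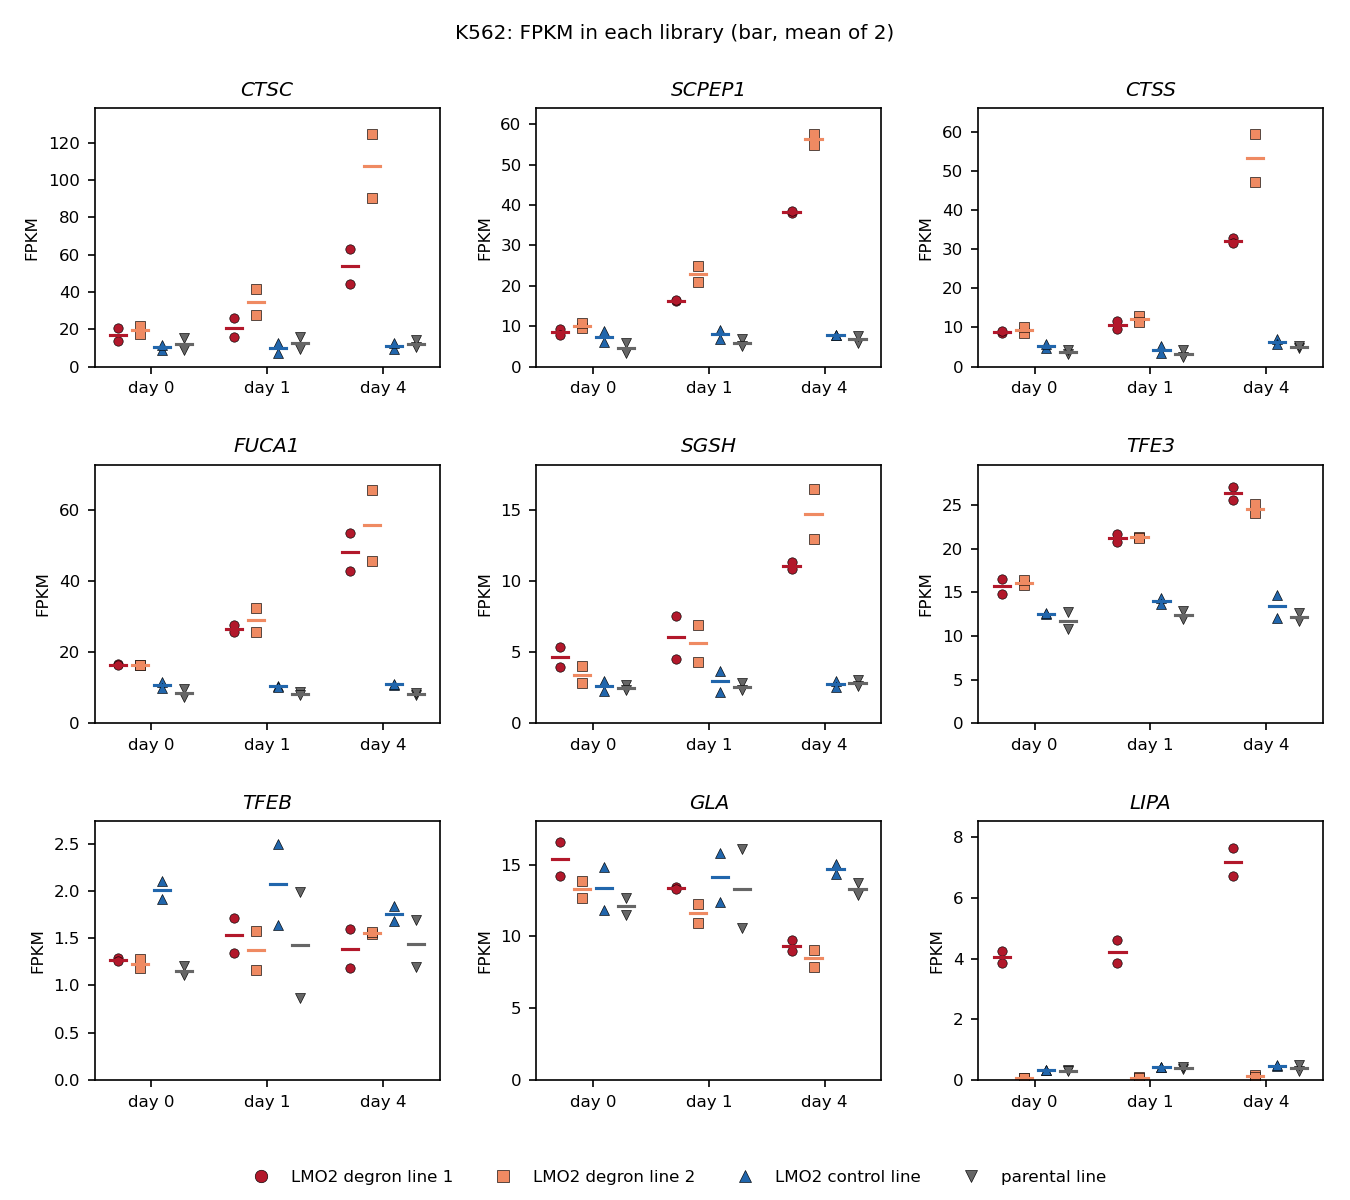
FPKM of 9 genes in every K562 library of the degron set, by day, with 1 point per library and a bar at the mean of 2. CTSC, SCPEP1, CTSS, FUCA1, SGSH and TFE3 stood highest in the degron lines on day 4, GLA stood lowest there, TFEB overlapped, and LIPA was high in degron line 1 alone.

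On day 1 none of the 44 genes passed (limma), where 0.0261% of all genes rose and 0.0521% fell. An unadjusted p under 0.05 was reached by 7 of the 44 and by 1069 of all 15348 genes (limma). The median change was 0.18, against 0.031 over all genes. With the block FUCA1 (0.76, adjusted p = 0.0387, against 0.13 without) and CTSC (0.54, adjusted p = 0.0438, against 0.897 without) rose, where 0.463% of all genes rose and 0.625% fell. In the control lines 0% of all 15348 genes, and so none of the 44, passed between day 4 and day 0, in limma or in edgeR on recovered reads. At an unadjusted p under 0.05 there were 0 of the 44 and 509 of all genes (limma).

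The degron lines differed from the control lines before dTAGv1 was added. On day 0, 30 of 44 genes were higher in degron lines and none lower, where 10.6% of all genes were higher and 6.14% lower, and the median difference was 0.63, against 0.024 over all genes. With the block 37 were higher and CTSZ was lower, where 17.9% and 12.9% of all genes were. By p, CTSL led, at 1.70 ± 0.11 (adjusted p = 1.27e-07), followed by SCARB2 at 1.00 ± 0.09 and, apart from LIPA, by NEU1 (0.93 ± 0.11), GM2A (1.10 ± 0.13) and CTSA (1.04 ± 0.13). All 4 degron libraries were above all 4 control-line libraries for 27 of 44 genes on day 0 and below them for 1, CTSZ, where 11.4% and 5.94% of all genes were. CTSH was higher on day 0 (1.04 ± 0.17, adjusted p = 0.000678). With degron line 2 alone the count was 27, where 1459 of all 15348 genes were higher and 871 lower. With degron line 1 alone it was 19, where 807 of all genes were higher and 390 lower. The day 4 change is measured from this day 0, so both comparisons share libraries and are given side by side. The cause of the day 0 difference was not tested.

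The degron lines were set against each other. None of the 44 genes differed in its change between line 2 and line 1 (limma; 0.00652% of all genes were higher and as many lower). An unadjusted p under 0.05 was reached by 4 of the 44 and by 471 of all 15348 genes (limma). Of the 44 differences, 37 were above 0. The median change was 0.922 in line 2 and 0.717 in line 1, and 0.800 in libraries of bio rep 1 and 0.803 in those of bio rep 2. Line 2 alone gave 29 genes higher and 1 lower, where 1178 of all 15348 genes were higher and 977 lower. Line 1 alone gave 17 and 2, GLA and CTSZ, where 892 of all genes were higher and 506 lower. Counted on the reads recovered from the FPKM (edgeR), 24 of the 44 genes rose and 1 fell on day 4. In that fit 1150 of all 19557 genes rose and 1511 fell, whereas 1784 rose and 1256 fell in the FPKM fit, so the split over all genes turned, and that of the lysosomal genes did not. On day 0 the same fits gave 1716 higher and 1501 lower, against 1633 and 943, with 29 lysosomal genes higher and 1 lower.

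Other genes of the lysosome were examined from lists of related function, also chosen with earlier results of these data known. The background was 11.6% of all genes that rose on day 4 and 8.18% that fell. Of 17 further hydrolases, 15 passed the filter, 8 rose and 1 fell on day 4 (median 0.75), among them ACP2, an acid phosphatase (1.32 ± 0.18), and MAN2B2, a mannosidase (1.26 ± 0.19). The one that fell was ACP5, an acid phosphatase of osteoclasts and macrophages (-1.14 ± 0.28). Of 16 V-ATPase subunits, 6 rose and none fell (median 0.40), led by ATP6V1B2 (0.89 ± 0.12), ATP6V1D (0.72 ± 0.11) and ATP6V0A1 (0.90 ± 0.19). Of 14 genes that sort lysosomal enzymes, 7 rose and none fell (median 0.51), led by GNPTAB, which builds the mannose 6-phosphate tag (0.93 ± 0.14), the sorting receptor SORT1 (0.91 ± 0.15) and IGF2R, the mannose 6-phosphate receptor (0.73 ± 0.13). Of 15 further membrane proteins tested, 6 rose and 1 fell (median 0.28), with LAPTM5 lower (-1.33 ± 0.19) and the cystine exporter CTNS (1.49 ± 0.21) and the channel TPCN1 (0.87 ± 0.13) higher. The list of nutrient sensing at the lysosome also held MITF and TFEC, transcription factors of the family of TFEB and TFE3. All its genes are called sensing genes below. Of its 15 tested genes, 5 rose and none fell (median 0.29), with RRAGB (0.94 ± 0.15), FNIP2 (0.64 ± 0.10) and RRAGC (0.73 ± 0.16) at the smallest p. Of 5 tested cathepsin inhibitors, none rose and SERPINB6 fell (-0.76 ± 0.18). The adjusted p of the genes named here lay between 0.000155 and 0.00907. With the replicate block 11 V-ATPase subunits rose and 1 fell, 9 sensing genes rose and none fell, and 2 cathepsin inhibitors fell, where 20.1% of all genes rose and 15.6% fell. On day 1 none of these lists held a called gene (limma).

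On day 0, 11 of the 15 further hydrolases were higher in degron lines and none lower, with GALC (1.05 ± 0.11), ACP5 (1.39 ± 0.19) and CTSV (0.63 ± 0.10) at the smallest p. Of the other lists, 6 of 16 V-ATPase subunits, 5 of 14 sorting genes, 5 of 15 membrane proteins, 4 of 15 sensing genes and 4 of 5 cathepsin inhibitors were higher and none was lower, where 10.6% of all genes were higher and 6.14% lower. With the block 10 V-ATPase subunits and 9 sensing genes were higher, where 17.9% of all genes were. LAPTM5, a membrane protein of blood cell lysosomes, was among those higher on day 0 (1.25 ± 0.13) and lower in its change by day 4, as was ACP5.

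Markers of blood cells and other cell types also changed, some up and others down. The summed level of 12 monocyte, macrophage and granulocyte markers was 128.7 to 168.2 FPKM in degron lines on day 4 and 55.0 to 76.6 on day 0, against 17.8 to 53.4 FPKM in control lines, and 4 of 12 reached 1 FPKM in any library. LYZ (1.18 ± 0.36), ITGAM (1.31 ± 0.22) and ITGAX (2.01 ± 0.12) rose on day 4 (adjusted p = 0.0328, 0.000806 and 3.17e-07), while CD14, CSF1R, CD163, MPO, ELANE and S100A8 stayed at or under 0.343 FPKM in degron lines on day 4 and in control lines. SPI1 was tested and not called on day 4, at 23.4 to 37.2 FPKM in degron lines against 13.7 to 36.2 FPKM in control lines. The sum of 11 erythroid markers was 155.9 to 269.7 FPKM in degron lines on day 4 and 482 to 885 on day 0, against 464 to 1441 FPKM in control lines, with KLF1 (-3.02 ± 0.20), HBZ (-3.52 ± 0.73) and GATA1 (-0.86 ± 0.13) lower and EPOR higher. ITGAX also rose on day 1 (0.82 ± 0.12, adjusted p = 0.0256), and LYZ, ITGAM and ITGAX were higher on day 0 (0.88 ± 0.26, 2.39 ± 0.15 and 0.99 ± 0.09). Of the 11 erythroid markers, 1 fell on day 1 (limma), where 0.0521% of all genes fell. Before dTAGv1, on day 0, 3 of them were lower and none higher, where 6.14% of all genes were lower. With the block 7 were lower on day 0, where 12.9% of all genes were. The 1 tested megakaryocyte marker was also lower on day 0 (-1.01). The sum of 6 lymphocyte markers was 24.6 to 48.7 FPKM in degron lines on day 4 and 52.1 to 106.5 FPKM on day 0, against 9.96 to 43.5 FPKM in control lines. On day 0 all degron libraries were above every control library in this sum, and 2 of 3 tested lymphocyte markers were higher, CD3D (2.73 ± 0.32, adjusted p = 3.39e-05) and NKG7 (0.55 ± 0.15, adjusted p = 0.021). By day 4 CD3D, a chain of the T cell receptor complex, fell (-1.88 ± 0.45, adjusted p = 0.00862). Markers of fibroblasts and epithelium, 6 genes, summed to 55.6 to 66.0 FPKM in degron lines on day 4 and 91 to 139.6 FPKM on day 0, against 80.6 to 158.9 FPKM in control lines, and of 4 tested COL3A1 rose and EPCAM and KRT8 fell on day 4. The 7 megakaryocyte markers summed to at most 1.98 FPKM in degron lines on day 4 and 2.53 FPKM on day 0, against at most 5.91 FPKM in control lines. MS4A1 was at 0 in all 24 libraries. The part of any of these shifts in the lysosomal genes was not tested.

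In HEL, few lysosomal genes passed after TAL1 knockdown in edgeR without a replicate block, and the pools differed. With siPool 1, 4 of 44 tested genes rose and 1 fell (edgeR; 2.56% of all 16688 genes rose and 1.65% fell), and the median change was 0.13, against -0.018 over all genes. With siPool 2 none passed (edgeR, and none with DESeq2), where 0.491% of all genes rose and 0.563% fell. An unadjusted p under 0.05 was reached by 8 of the 44 and by 1964 of all 16688 genes (edgeR). The counts depended on the setting. For siPool 1 DESeq2 called 10 genes, where 719 of all genes were higher and 469 lower. With the replicate number as a block, siPool 1 gave 16, where 1417 of all genes were higher and 1471 lower. For siPool 2 that block gave 4, where 829 were higher and 865 lower. SGSH, which was listed at 0 counts in all 9 HEL libraries, was not tested.

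CTSS had 117, 129 and 137 CPM (counts scaled to library depth) with siPool 1 and 85.8, 93.1 and 85.6 CPM with siPool 2, against 83.6, 91.5 and 86.5 CPM with the non-targeting pool. It rose by 0.55 ± 0.09 with siPool 1 (adjusted p = 0.00338), the one of the 5 called genes that passed in all 9 fits without 1 library. CTSA had 67.3, 47.1 and 54.8 CPM with siPool 1 and 48.1, 43.1 and 48.3 CPM with siPool 2, against 40.8, 32.1 and 36.3 CPM with the non-targeting pool, so that every knockdown library was above every control library. It rose with siPool 1 by 0.63 ± 0.13 (adjusted p = 0.0179, and up to 0.0824 without replicate 2 or 3 of the non-targeting pool or replicate 3 of siPool 1) and stood at 0.35 ± 0.13 with siPool 2 (adjusted p = 0.301). LAMP2 had 71.9, 85.8 and 81.6 CPM with siPool 1 and 67.8, 68.8 and 69.2 CPM with siPool 2, against 57.8, 60.8 and 61.1 CPM with the non-targeting pool. Here too no library overlapped between pools and control, with a change of 0.41 ± 0.09 (adjusted p = 0.0192) for siPool 1 and of 0.20 ± 0.09 (adjusted p = 0.408) for siPool 2. SCPEP1 had 40.4, 48.9 and 55.5 CPM with siPool 1 and 33.3, 39.7 and 37.4 CPM with siPool 2, against 27.5, 35.3 and 35.2 CPM with the non-targeting pool (0.56 ± 0.14 for siPool 1, adjusted p = 0.0342). SCARB2 had 10.2, 11.2 and 10.1 CPM with siPool 1 and 14.6, 12.3 and 13.2 CPM with siPool 2, against 15.0, 15.7 and 14.3 CPM with the non-targeting pool. It fell with siPool 1 (-0.51 ± 0.13, adjusted p = 0.039), while in K562 it rose in the degron lines. The calls of LAMP2, SCPEP1 and SCARB2 were lost in 5, 7 and 8 of the 9 fits without 1 library (adjusted p up to 0.108, 0.16 and 0.143). Without replicate 3 of the non-targeting pool, or without replicate 3 of siPool 1, only CTSS was called.

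IDUA had 10.6, 11.6 and 11.9 CPM with siPool 1 and 7.26, 4.81 and 8.27 CPM with siPool 2, against 7.74, 6.79 and 6.95 CPM with the non-targeting pool, and missed the threshold for siPool 1 (0.67 ± 0.19, adjusted p = 0.0647). The smallest p with siPool 2 belonged to ARSB, at 18.4, 13.8 and 13.3 CPM with siPool 1 and 10.3, 10.1 and 6.43 CPM with siPool 2, against 17.5, 12.6 and 12.9 CPM with the non-targeting pool (-0.68 ± 0.20 for siPool 2, adjusted p = 0.178). Its siPool 2 libraries were below all others, but the correction over all genes was not passed. LIPA had 31.5, 38 and 36.1 CPM with siPool 1 and 28.7, 23.7 and 22.4 CPM with siPool 2, against 34.0, 30.6 and 33.3 CPM with the non-targeting pool (-0.38 ± 0.12 for siPool 2, adjusted p = 0.2). HEXA had 27.9, 29.6 and 29.4 CPM with siPool 1 and 27.1, 29.3 and 31.4 CPM with siPool 2, against 22.0, 25.0 and 24.3 CPM with the non-targeting pool, above it in all 6 knockdown libraries (0.28 ± 0.10 and 0.30 ± 0.10, adjusted p = 0.161 and 0.254). NPC1 had 15.7, 14.0 and 14.8 CPM with siPool 2 against 19.6, 16.9 and 19.4 CPM with the non-targeting pool (-0.33 ± 0.12, adjusted p = 0.296), and CTSD had 28, 30.0 and 36.6 CPM with siPool 2 against 23.7, 26.3 and 26.0 CPM with the non-targeting pool (0.31 ± 0.12, adjusted p = 0.332). Neither gene overlapped between those groups, and neither passed. TFE3 lay between 9.21 and 11 CPM in all 9 libraries. TFEB had 0.672, 0.535 and 0.283 CPM with siPool 1 and 0.958, 0.819 and 0.674 CPM with siPool 2, against 0.826, 1.66 and 1.89 CPM with the non-targeting pool, at 6 to 44 counts per library, and was not called (adjusted p = 0.0781 and 0.503).

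Set against each other, the pools differed for 3 lysosomal genes, CTSS, SMPD1 and LIPA, all lower with siPool 2 than with siPool 1, where 1.08% of all genes were higher and 1.68% lower with siPool 2. TAL1 RNA did not differ between the pools in this test (0.07 ± 0.08, adjusted p = 0.746). The lists and markers below were set against the non-targeting pool (edgeR). In that comparison 2.56% of all genes rose and 1.65% fell with siPool 1. With siPool 2, 0.491% rose and 0.563% fell. Among the lists of related genes, the channel TPCN1 rose with siPool 1 (0.89 ± 0.13, adjusted p = 0.00201) and with siPool 2 (0.67 ± 0.13, adjusted p = 0.0231), 1 of 16 further membrane proteins tested in each. Of 16 further hydrolases, 2 rose with siPool 1, among them PLBD2 (0.50 ± 0.12), against none with siPool 2. The cathepsin inhibitors CST7 (1.86 ± 0.38 and 2.27 ± 0.38) and SERPINB1 (0.68 ± 0.11 and 0.56 ± 0.11) rose with both pools, 2 of 8. None of 16 V-ATPase subunits and none of 14 sorting genes passed with either pool (edgeR). Of the 17 genes of the sensing list, the transcription factor TFEC rose and RRAGD fell with siPool 1 (0.57 ± 0.10 and -0.66 ± 0.15). Beside these, the sum of the monocyte, macrophage and granulocyte markers was 109.8 to 122.2 CPM with siPool 1 and 90.4 to 106 CPM with siPool 2, against 91.8 to 107.4 CPM with the non-targeting pool, and 3 of 6 tested rose with siPool 1, ITGAM (1.57 ± 0.16), LYZ (0.42 ± 0.09) and FCGR1A (2.82 ± 0.67), against none with siPool 2. Of other markers the lymphocyte gene NKG7 (1.66 ± 0.35) and the megakaryocyte gene VWF (2.04 ± 0.52) rose with siPool 1 (edgeR, adjusted p = 0.0184 and 0.0459). FCGR1A, at 0.0376 to 1.32 CPM over all HEL libraries, and VWF, at 0.413 to 4.06 CPM, were near the floor. Erythroid markers summed to 1318 to 1723 CPM with siPool 1 and 1636 to 1843 CPM with siPool 2, against 2846 to 3267 CPM with the non-targeting pool. Of 9 tested erythroid markers, 6 fell with siPool 1 and 5 with siPool 2, and none rose with either. The part of all these markers in the lysosomal values was not tested.

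**Figure D3:**
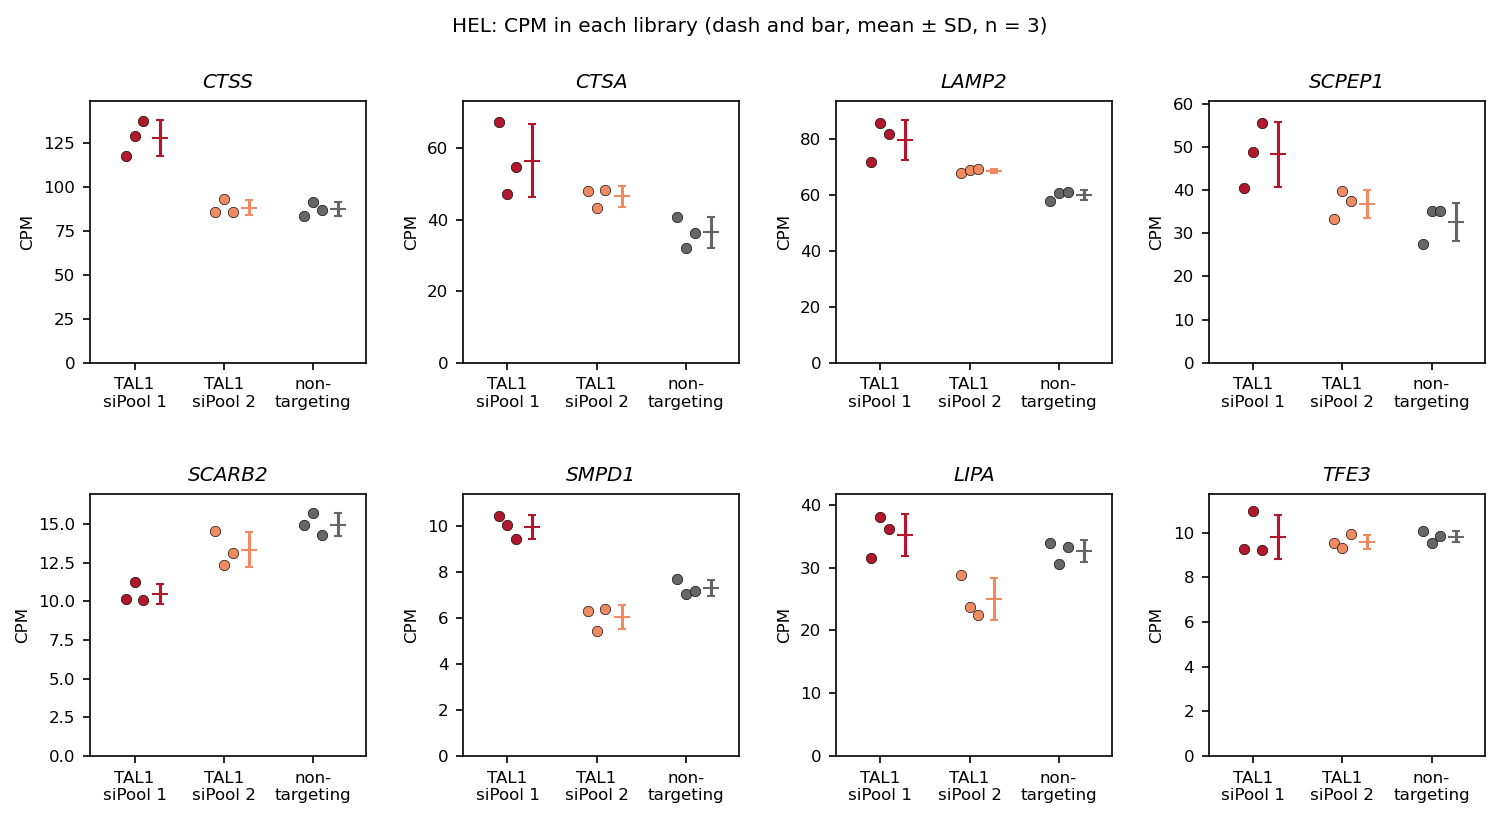
CPM of 8 lysosomal genes in every HEL library, with 1 point per library and the mean ± SD (n = 3) beside them. CTSS was higher with siPool 1 alone, CTSA and LAMP2 lay above the non-targeting pool with both pools, SCARB2 was lower with siPool 1, and TFE3 overlapped in all groups.

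In K562 with LDB1 shRNA, where 1 library per group allows no test, many lysosomal genes stood higher than with the control shRNA. Of 41 genes that reached 5 TPM (transcripts scaled to length and depth), 10 were at least 2-fold higher in both LDB1 libraries and none lower, where 8.94% of 12445 genes were higher and 2.21% lower. The median log2 ratio of (TPM + 1) was 0.763 and 0.733 for the 2 shRNAs, against 0.182 and 0.133 over all genes. Once that shift of all genes was subtracted, 8 genes were higher and none lower, where 886 of all 12445 genes were higher and 424 lower. Both ratios were above 0 for 36 of 41. The 2 ratios of a gene share the control library, whose error enters both.

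CTSA had 220.4 and 154 TPM with LDB1 shRNA 1 and 2, against 38.5 TPM with the control shRNA. CTSC had 110.1 and 70.2 TPM with the LDB1 shRNAs, against 21.1 TPM with the control. TPP1 had 293 and 268 TPM with the LDB1 shRNAs, against 90.2 TPM with the control, and CTSS had 38.7 and 34.6 TPM, against 12.1 TPM. These were the 4 proteases past 2-fold, of 12. IDS, the iduronate sulfatase, had 37.7 and 31.0 TPM with the LDB1 shRNAs, against 6.83 TPM with the control, and SGSH had 22.0 and 18.3 TPM, against 6.46 TPM. They were 2 of 4 sulfatases listed. FUCA1 had 77.4 and 59.8 TPM with the LDB1 shRNAs, against 26.1 TPM with the control, NEU1 had 295 and 371 TPM, against 136 TPM, and HEXA had 35.1 and 33.3 TPM, against 16.0 TPM. None of 7 lipid-handling genes and none of 6 membrane proteins was past 2-fold in both. TFE3 had 116 and 123 TPM with the LDB1 shRNAs, against 49.1 TPM with the control (log2 ratios 1.22 and 1.31). TFEB had 3.83 and 4.42 TPM, against 4.05 TPM, under the level at which a gene was counted. The most negative ratios were those of LAMP1 (-0.94 and -0.85), with 22.2 and 23.9 TPM with the LDB1 shRNAs, against 43.7 TPM with the control, a gene that was higher in degron lines than in control lines on day 0 (1.00 ± 0.23, adjusted p = 0.00679). That day 0 call was lost with parental cells as the only control (0.63, adjusted p = 0.166), and its libraries overlapped, at 16.7 to 24.7 FPKM in degron lines against 6.57 to 19.5 FPKM in control lines.

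**Figure D4:**
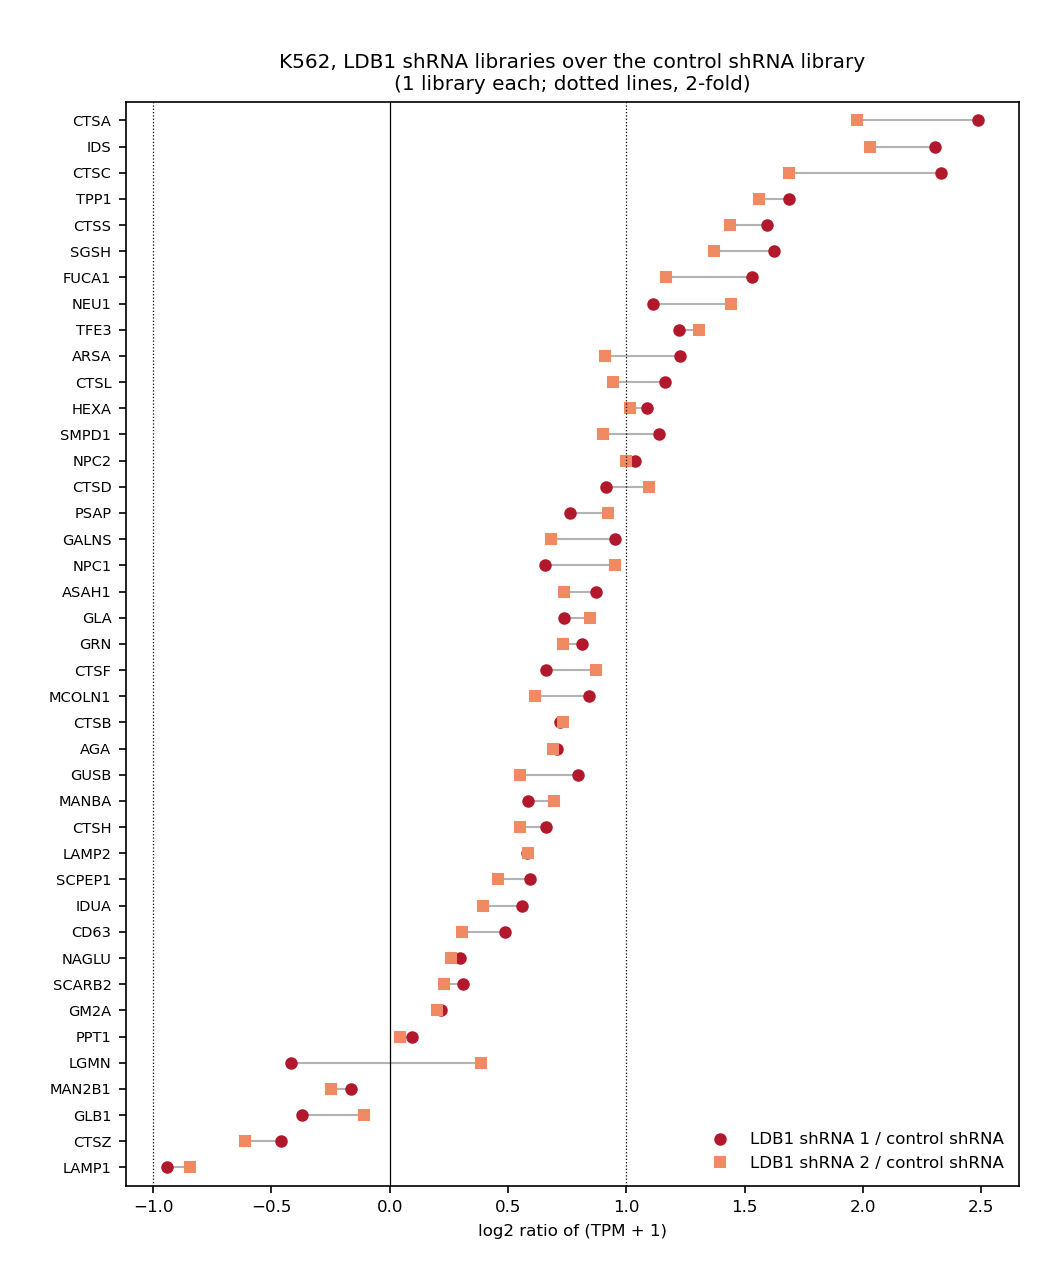
Log2 ratio of (TPM + 1) of each LDB1 shRNA library over the control shRNA library for 41 lysosomal genes, sorted by their mean, with 1 library per group and dotted lines at 2-fold. The 10 genes past the line in both libraries are led by CTSA, and LAMP1 is lowest.

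The LDB1 libraries share no library with the degron set, but the RNA of each target was lower in the other set. LDB1 RNA stood at 32.0 to 46.2 FPKM in degron lines on day 4, against 81.0 to 96.8 FPKM in control lines. LMO2 RNA stood at 44.2 and 46.2 TPM with the LDB1 shRNAs, against 131 TPM with the control. The part of these changes in the lysosomal genes was not tested. All 10 genes that were 2-fold higher with both LDB1 shRNAs had also risen in the degron lines on day 4, which is 100% of the 10 and 35.7% of the 28 genes called higher on day 4 among the 41. Over the 11162 genes present in both tables, 307 had both, 35.5% of the 866 higher with LDB1 shRNA and 22.3% of the 1379 called higher on day 4. SCPEP1 rose by 1.90 on day 4 in degron lines and had log2 ratios of 0.59 and 0.46 with LDB1 shRNA, while GLA fell in degron lines and had ratios of 0.74 and 0.85; these differences between sets were not tested. Of the related lists, set against 8.94% of all genes past 2-fold and higher and 2.21% lower, 5 of 13 further hydrolases were past 2-fold with both LDB1 shRNAs, among them PLA2G15 and ACP2, and 3 of 13 further membrane proteins, among them CTNS (2.65 and 2.29). 1 of 16 V-ATPase subunits, 1 of 14 sorting genes and 1 of 5 cathepsin inhibitors were past 2-fold and higher. Of 15 genes of the sensing list, MITF alone, a transcription factor of the family of TFEB and TFE3, was past 2-fold and lower (-1.6 and -1.2). The 6 listed monocyte, macrophage and granulocyte markers summed to 240.9 and 246 TPM with the LDB1 shRNAs, against 126 TPM with the control, and the 11 erythroid markers to 6141 and 8520 TPM, against 14147 TPM. The 3 listed lymphocyte markers summed to 192 and 202 TPM with the LDB1 shRNAs, against 36.3 TPM with the control, most of it CD3D at 174 and 185 TPM, against 27.5 TPM. Of 3 listed markers of fibroblasts and epithelium, COL1A1 (1.29 and 1.41) and KRT8 (1.08 and 1.13) were past 2-fold and higher with both, and EPCAM (-1.73 and -1.46) was past it and lower. ITGA2B, the 1 listed megakaryocyte marker, had 22.8 and 26.7 TPM with the LDB1 shRNAs, against 15.6 TPM with the control. The part of these shifts in the lysosomal genes was not tested.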

How the data were processed

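RNA of 36 libraries was analysed. The authors deposited FPKM (60642 genes) for the degron set, raw counts (57820 genes) for HEL and TPM (13707 genes) for LDB1. Per the submitters' processing notes, the tools were FastQC, STAR and featureCounts, on hg19. Their versions, the annotation and the use of strand are not given in the sources used here, so an antisense neighbour's reads may be included. Tests were run inside a table only. FPKM steps gave whole reads for all 40929 genes above 0 (tolerance 0.02 reads, 100% of them).

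FPKM were analysed as log2(FPKM + 1), which understates changes of low genes, in limma 3.58.1 (R 4.3.3; 12 line-by-day groups, trend and robust settings) for genes that reached 1 FPKM in 2 or more libraries. For HEL, edgeR 4.0.16 was run on the counts (TMM, filterByExpr, quasi-likelihood test) in 1 fit of 9 libraries, and CPM use TMM factors. Of symbols on 2 lines of the count table (IDS and CLN3), the line with most counts was used. P-values were adjusted by Benjamini-Hochberg over all tested genes of a comparison, and a gene was called under 0.05. LDB1 ratios are log2(TPM + 1) with no test. Errors beside log2 changes are SE. Same-numbered K562 replicates deviated together (66 pairs of groups, correlation of the replicate differences 0.119 to 0.662, median 0.377). Values with the replicate number as a block are therefore given for some, not all, of the calls that the block changed. Scripts were tested on simulated data. Alternatives were DESeq2 1.42.0, other filters, pseudocounts, scalings, single lines as control or degron line, and leaving out each library.

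The genes and lists were chosen with earlier results of these data known. Named with values were TFEB, TFE3, genes called on day 4 with a log2 change of at least 1, the 6 smallest p for each siPool, genes past 2-fold with both LDB1 shRNAs, the 3 most abundant, and up to 3 called genes per related list. GLA, SMPD1, GUSB, LAMP1 and others were singled out after their values were seen. Promoter sequences are RefSeq's (GRCh38.p14), and no coordinate was converted to hg19.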

Additional observations from a re-analysis of the deposited data

Results flagged for a closer look

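LIPA, which encodes acid lipase, differed between the degron lines before dTAGv1 was added. On day 0 the level in degron line 2 minus that in degron line 1 was -2.24 ± 0.12 on the log2(FPKM + 1) scale (limma, adjusted p = 4.33e-08), with both libraries of line 2 below, and both of line 1 above, every control-line library. Of the other 43 tested genes none passed this test.

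In HEL, 3 genes differed between the TAL1 pools when siPool 2 was set against siPool 1. CTSS differed by -0.53 ± 0.09 (edgeR, adjusted p = 0.00652), and all 3 siPool 2 libraries lay below all 3 siPool 1 libraries. For SMPD1 the difference was -0.72 ± 0.15 (adjusted p = 0.0213), with 6.31, 5.42 and 6.37 CPM in siPool 2 libraries and 10.4, 10.03 and 9.4 CPM in siPool 1 libraries, and values of 7.66, 7.04 and 7.16 CPM with the non-targeting pool. The difference for LIPA was -0.49 ± 0.12 (adjusted p = 0.0458), again with no overlap between the pools. CTSS kept its call in all 9 fits without 1 library, SMPD1 in 4 of them and LIPA in 3.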

How the results depend on the processing

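Counts of called lysosomal genes are given. On day 4 (30) the count was 25 to 31 without single libraries, lowest without replicate 2 of degron line 2 on day 4, and 25 of the 30 called genes passed in all 24 such fits; on day 0 (30) it was 24 to 31, and 22 passed in all. Degron line 1 alone gave 19 on day 4 and 19 on day 0 (all genes higher and lower: 892 and 506, 807 and 390). Day 1 gave 0 in every fit without 1 library and 2 with the replicate block, with FPKM or with recovered reads. The control lines over time and the difference between degron lines gave 0 throughout. LIPA on day 0 reversed to -0.31 (adjusted p = 0.0528) with degron line 2 alone.

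For siPool 1 (5) single libraries left 1 to 7, for siPool 2 (0) they left 0 and for the pools against each other (3) they left 1 to 6. Without a filter these counts were 8, 1 and 6 (all genes higher and lower: 660 and 424, 233 and 185, 321 and 437). Without replicate 1 of every group, chosen after seeing the data, they were 16, 5 and 15 (all genes: 1472 and 1233, 804 and 848, 1175 and 1416). DESeq2 gave 10 for siPool 1 and 7 between pools (all genes higher and lower: 719 and 469, 373 and 536). HEL replicate numbers are not a stated pairing: a replicate block gave 16, 4 and 17 (all genes higher and lower: 1417 and 1471, 829 and 865, 1183 and 1248), correlations of same-numbered libraries were 0.087 to 0.363, and 6 of 9 libraries correlated best with their own number. The cause of these shifts was not tested. For LDB1 (10), 1.5-fold in place of 2-fold gave 26, of which 25 were higher, where 2453 of all 12445 genes were higher and 973 lower. All other settings tried stayed within 1.5 times the counts above. Depth limits CLN3, ARSB and LIPA in K562. In HEL it limits TFEB (6 to 44 counts per library), CTSF (3 to 35) and LGMN (2 to 18).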
